A study of Enchytraeus albidus with 15 samples.

Results

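The probes described here are the detected clones whose names begin with Ealb_Met on an Agilent array for Enchytraeus albidus, the white potworm, a small segmented worm of soil. The array held 1035 probes that were not controls, of which 345 had this prefix, and 167 of the 345 were detected. Members were chosen by detection: outlier spots aside, a share of 0.5 or more of the spots of a probe had to be well above background, on each of the 3 arrays of 1 or more of the 5 groups. Detection was itself a measured value, so differences in detection among these 167 members are given as a description. The other 178 probes of this prefix had no group with 3 such arrays and were not tested.

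Adult worms that had a clitellum spent 2 days at 20 °C, 10 to a vessel, in clean OECD soil (an artificial soil used in standard toxicity tests) or in the same soil with silver. The 4 silver groups had 100 or 200 mg/kg of silver nitrate (AgNO3) or of silver nanoparticles (Ag-NP), and the clean soil is called control below. Each group had 3 biological replicates and each replicate was hybridised in 1 colour to 1 array, which gave 15 arrays. Worms of a replicate were extracted together, so each value is an average over whole bodies, and fewer cells of a type and less RNA per cell cannot be told apart.

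Silver nitrate is a soluble salt that releases silver ions, which bind thiol groups of proteins. Silver nanoparticles are metallic particles that can dissolve slowly into the same ions and can also reach tissues as particles. Oligochaetes live in close contact with soil water and take metals up through the skin and the gut, and metal-binding proteins, antioxidant enzymes and heat shock proteins are well known parts of the response of worms to metals. None of these roles could be assigned to a member, because the files give clone names without a gene name, a description or a sequence. A name such as Ealb_Met_P6_D6_SP6_2090551 reads as a plate, a well and SP6 or T7, which are names of promoters that flank the cloning site of common vectors. The files do not explain the prefix Met.

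The names of the 345 probes covered 10 plates, and no well was named by more than 1 probe, so no clone was measured from both ends under its name. Of 303 probes ending in SP6, 142 (46.9%) were detected, and of 42 ending in T7, 25 (59.5%) were. The share detected ran from 37.8% on plate 7 to 57.6% on plate 4. The members closest to the limit were Ealb_Met_P1_C8_SP6_2090198 and Ealb_Met_P10_C3_SP6_2090796, each with a share of 0.533 of spots on its weakest AgNO3 100 mg/kg array. Just outside were Ealb_Met_P1_H5_SP6_2090180 in control and Ealb_Met_P4_C9_SP6_2090101 with AgNO3 at 100 mg/kg, each with a share of 0.467.

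Of all probes, 24.3% to 56.9% were detected on an array (median 44.0%). Array brightness, meaning the 75th percentile of processed signal, ran from 16.9 to 54.3. Between 5 and 7 members were saturated on an array. The first principal component of the 167 members held 47.6% of their variance and correlated with log2 brightness at -0.762 over the 15 arrays, given as a description. On it the AgNO3 200 mg/kg arrays lay at 11.2, 8.77 and 5.99, above the other 12, and their brightness ran from 20.9 to 23.1. With brightness as a covariate 9 members and 33 of all probes changed with AgNO3 at 200 mg/kg, beside 10 and 36 without it. The same covariate raised the counts of several other comparisons, as given at the end, and the part of brightness was not tested. The arrays lay on 3 slides: slides 1 and 2 held control and AgNO3 at both concentrations, slide 1 also held Ag-NP 200 mg/kg replicates 1 and 2, and slide 3 held Ag-NP 200 mg/kg replicate 3, all Ag-NP 100 mg/kg arrays, control replicate 3 and AgNO3 200 mg/kg replicate 3. No slide held both forms at 100 mg/kg.

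Most members were measured everywhere: 89 of the 167 were detected on all 15 arrays. Of the rest, 24 had all 3 arrays detected in 4 groups, 16 in 3 groups, 22 in 2 groups and 16 in 1 group. AgNO3 at 100 mg/kg was that group for 14 of these 16, and Ag-NP at 200 mg/kg for the other two. By group, all 3 arrays were detected for 165 members with AgNO3 at 100 mg/kg, 149 with Ag-NP at 200 mg/kg, 127 with Ag-NP at 100 mg/kg, 112 in control and 96 with AgNO3 at 200 mg/kg. Members detected on no array of a group numbered 0, 4, 11, 4 and 4 in the same order. These counts moved with single arrays. Control replicate 3 had 112 members detected beside 161 and 162 on the other control arrays, and AgNO3 200 mg/kg replicate 3 had 97 beside 161 and 147, and these are the arrays with the fewest probes detected of any kind. Ag-NP 100 mg/kg replicate 1 had the highest SD of the negative-control spots, 4.53 beside a median of 1.24 over the 15 arrays. It had 140 members detected at a brightness of 44.5. The part of array quality in these counts was not tested.

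**Figure D1:**
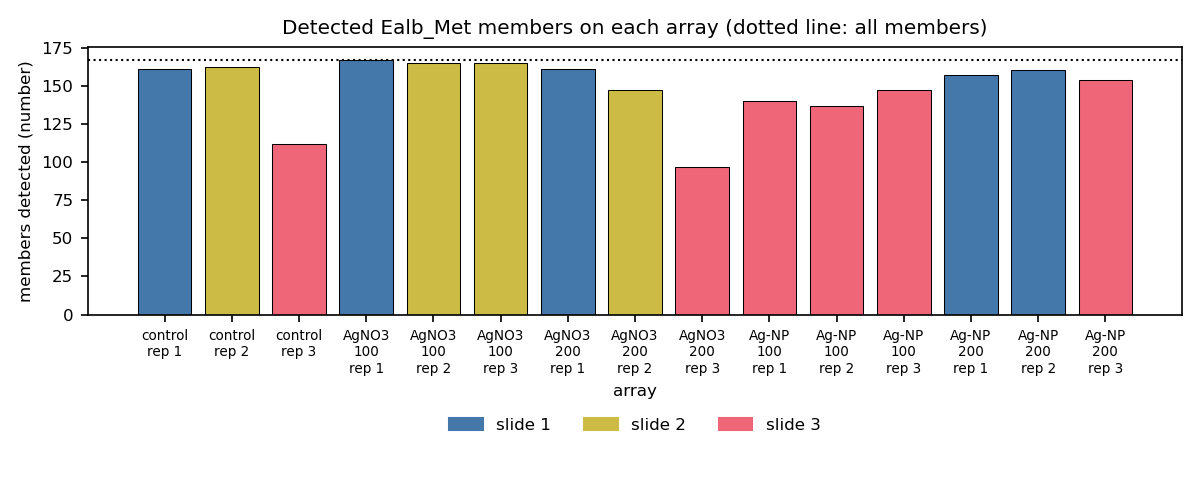
Number of the 167 members detected on each of the 15 arrays, as bars from 0, coloured by slide, with a dotted line at all members. Control replicate 3 (112) and AgNO3 200 mg/kg replicate 3 (97), both on slide 3, have the lowest bars, and AgNO3 100 mg/kg replicate 1 has all 167.

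Levels below are the mean log2 processed intensity over the 14 or 15 spots of a probe, relative to the array's 75th percentile over the 227 probes detected on all arrays. Levels of different probes are not set against each other, since probes bind with different strength. The spots of a member had a median SD of 0.088 to 0.20 within an array, while its median SD between replicates was 0.53 for control. It was 0.49 (100 mg/kg) and 0.31 (200 mg/kg) for the AgNO3 groups, and 0.67 (100 mg/kg) and 0.38 (200 mg/kg) for the Ag-NP groups. The spread between replicates was thus larger than the spread between spots in every group. The words rose, fell and changed are kept for members whose limma p-value, adjusted by the Benjamini-Hochberg method over all 446 tested probes, was below 0.05.

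The question of the first comparison was what silver nitrate at 200 mg/kg did to transcript levels. Against control, 6 members rose and 4 fell, from a 6.63-fold rise to a 3.60-fold fall. A set of 4 rising members tracked each other over all 15 arrays, and both of the steepest falls did too. All of these were picked for passing in this comparison on the same arrays, which by itself favours such tracking. These 10 are 5.99% of the members, near the 8.07% of all 446 probes that changed in this comparison (4.26% rose and 3.81% fell). The arrays of the groups did not overlap for 69 members (41.3%), 29 higher and 40 lower, beside 42.4% of all tested probes (15.7% higher and 26.7% lower), and 55 members and 142 of all 446 probes had an unadjusted p below 0.05. The median log2 difference was -0.14 over the members and -0.25 over all tested probes.

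Ealb_Met_P6_D6_SP6_2090551 had the largest rise as scaled here. Its levels were -6.50, -5.37 and -5.59 in control and -3.52, -2.95 and -2.81 with AgNO3 at 200 mg/kg. Every AgNO3 array was above every control array, and 2 of 3 control arrays detected it. The log2 difference was 2.73 ± 0.60 (SE, limma adjusted p = 0.0145), a 6.63-fold rise. Its size and rank depended on the processing: with normexp and quantile normalization the difference was 0.97, below the 2.41 of Ealb_Met_P3_G12_SP6_2090418, and in the authors' deposited log2 values it was 2.89 beside 3.25.

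Ealb_Met_P3_G12_SP6_2090418 had levels of -1.70, -0.35 and -0.74 in control and 1.29, 1.88 and 1.98 with AgNO3 at 200 mg/kg. The groups lay apart by more than the range within either. It rose 6.26-fold, by 2.65 ± 0.51 log2 units (SE, limma adjusted p = 0.0132), and was detected on all 15 arrays.

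Ealb_Met_P7_G12_SP6_2090688 went from -2.77, -1.59 and -1.52 in control to 0.02, 0.58 and 0.55. All control arrays were again below all AgNO3 arrays, and the rise was 5.08-fold (2.34 ± 0.56 log2 units, SE, limma adjusted p = 0.0217). Ealb_Met_P9_D10_SP6_2090758, outside the naming rule and named after its values were seen, was detected on only 2 of 3 AgNO3 and 1 of 3 control arrays and went from -7.75, -6.67 and -6.98 to -5.34, -5.02 and -5.27. Its groups did not overlap either (1.92 ± 0.55, SE, limma adjusted p = 0.0479), but its size is uncertain at this signal.

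Over the 15 arrays, the levels of Ealb_Met_P6_D6_SP6_2090551, Ealb_Met_P3_G12_SP6_2090418, Ealb_Met_P7_G12_SP6_2090688 and Ealb_Met_P9_D10_SP6_2090758 had pairwise Pearson correlations of 0.96 to 0.98. For Ealb_Met_P6_D6_SP6_2090551, the other 3 were the members most like it of all. In total 9 members correlated with it above 0.8, so the set has no sharp edge, and its median correlation with all members was 0.08. These correlations are a description over arrays that share slides, scaling and the same 5 groups. The clones come from plates 3, 6, 7 and 9, and without sequences it was not tested whether they carry the same transcript.

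The other two rises were smaller. Ealb_Met_P6_D7_SP6_2090558, in the well next to Ealb_Met_P6_D6_SP6_2090551 by name, had -1.23, -0.75 and -1.39 in control and -0.02, 0.22 and 0.30 with AgNO3 at 200 mg/kg. It rose 2.44-fold (1.29 ± 0.30 log2 units, SE, limma adjusted p = 0.0176) and correlated with the set of 4 at 0.84 to 0.93. Ealb_Met_P10_C8_T7_2175073, the only T7 clone among the 10, had 3.28, 3.64 and 4.34 in control and 5.19, 5.08 and 5.21 with AgNO3. The AgNO3 arrays were tightly grouped above all control arrays, with a difference of 1.41 ± 0.40 (SE, limma adjusted p = 0.0448). This rise depended on the scaling: in the authors' deposited log2 values the difference was -0.0096, with normexp and quantile normalization it was 0.16, and with spike-in scaling it was 0.76, none of which passed. On the linear scale of the processed intensity its AgNO3 arrays read 23720, 13810 and 20460 and its control arrays 13740, 9409 and 6987.

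The steepest falls also tracked each other. Ealb_Met_P4_F9_SP6_2090104 had -0.70, -0.81 and -0.38 in control and -2.37, -2.33 and -2.74 with AgNO3 at 200 mg/kg. It fell 3.60-fold (-1.85 ± 0.39 log2 units, SE, limma adjusted p = 0.0132), with no overlap of the arrays. Ealb_Met_P2_F6_SP6_2090277 had -1.25, -1.08 and -1.01 in control and -2.88, -2.99 and -2.91 with AgNO3. It fell 3.51-fold (-1.81 ± 0.40, SE, limma adjusted p = 0.0147), and the SD was 0.12 in control and 0.06 with AgNO3. The levels of this pair correlated at 0.98 over the 15 arrays, a description, since both were picked for a fall in the same comparison.

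The other falls rest on dim signals. Ealb_Met_P10_C9_SP6_2091227 had -5.08, -4.31 and -4.78 in control and -5.41, -6.00 and -6.25 with AgNO3 at 200 mg/kg, where 1 of 3 arrays detected it. Its fall was -1.16 ± 0.31 log2 units (SE, limma adjusted p = 0.0369). Ealb_Met_P8_A11_SP6_2091152, named after its values were seen, had -5.67, -4.78 and -5.14 in control and -6.31, -6.32 and -6.77 with AgNO3, with 2 of 3 and 1 of 3 arrays detected. Its fall was -1.27 ± 0.35 log2 units (SE, limma adjusted p = 0.0402), and the arrays of the groups did not overlap for either clone.

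**Figure D2:**
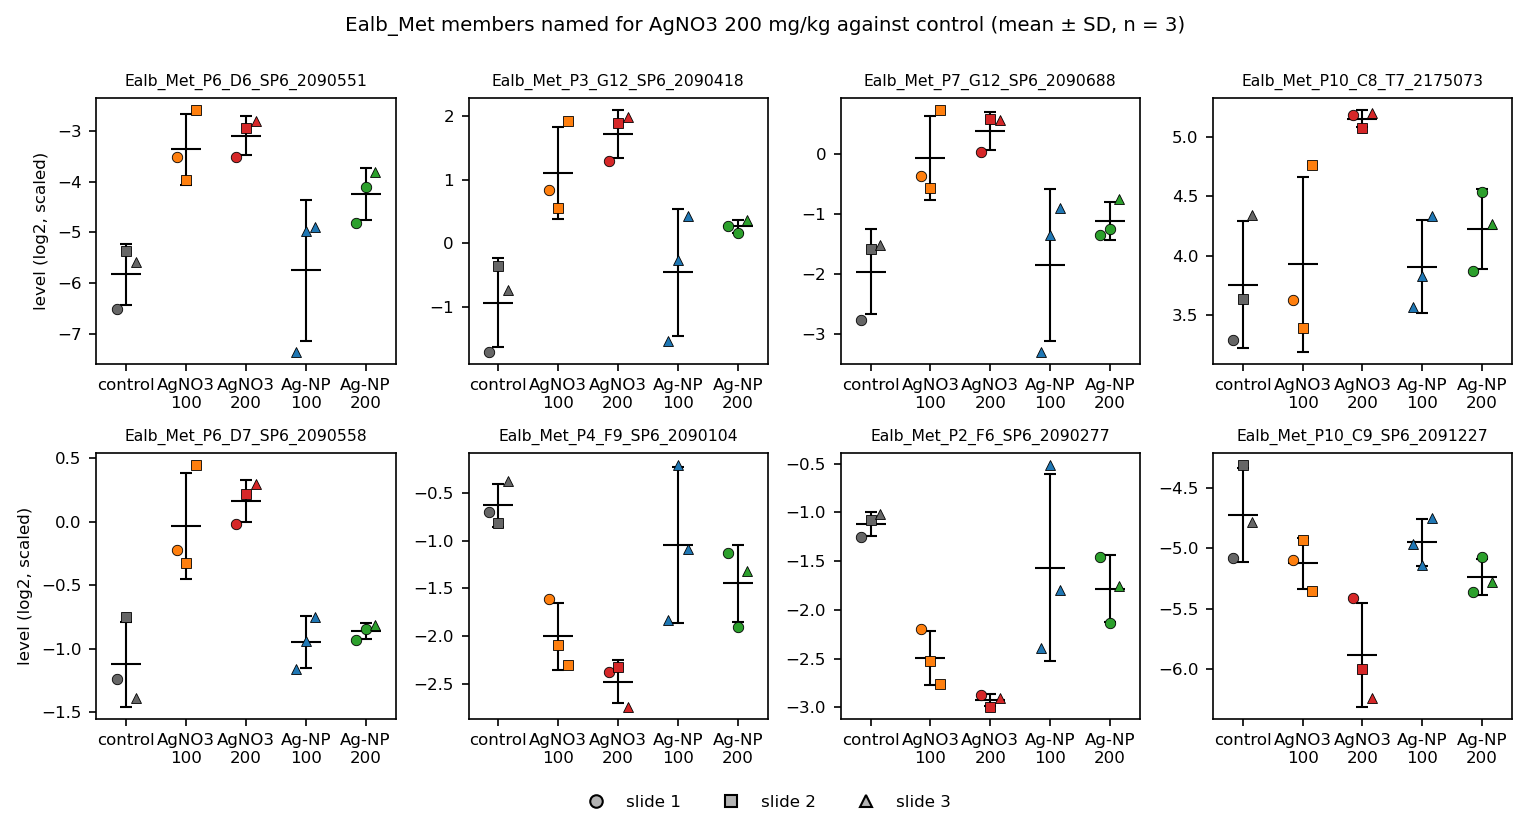
Level (log2, relative to the array's 75th percentile of probes detected everywhere) of 8 members that changed with AgNO3 at 200 mg/kg, on each array of the 5 groups. Points are arrays with a shape per slide, and bars are the mean ± SD (n = 3). The AgNO3 200 mg/kg arrays lie beyond all control arrays in each panel, which the choice of these members required.

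Each slide held 1 control and 1 AgNO3 200 mg/kg array, and since the arrays did not overlap for any of the 10, the sign on each slide was fixed. For Ealb_Met_P3_G12_SP6_2090418 the differences were 2.99, 2.24 and 2.71 on slides 1, 2 and 3, and for Ealb_Met_P4_F9_SP6_2090104 they were -1.67, -1.51 and -2.36. Those of Ealb_Met_P10_C9_SP6_2091227 were uneven, at -0.33, -1.69 and -1.46. With slide as a block 6 of the 10 passed, 4 rises and 2 falls: Ealb_Met_P10_C8_T7_2175073 and Ealb_Met_P10_C9_SP6_2091227 then had a limma adjusted p of 0.0742, and the other two that were lost are Ealb_Met_P9_D10_SP6_2090758 and Ealb_Met_P8_A11_SP6_2091152.

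The number of calls depended on single arrays and on the scaling. No member passed without control replicate 1, AgNO3 200 mg/kg replicate 2 or AgNO3 200 mg/kg replicate 3, where 4, 1 and 6 of all 446 probes did. Without control replicate 2, 5 members and 17 of all probes passed. Without control replicate 3, 18 members and 43 of all probes passed, and without Ag-NP 100 mg/kg replicate 1, 18 and 60. The levels and the tested probes were kept in these refits, so that last array entered this comparison through the estimate of the spread. With slide as a block 24 of all probes passed beside the 6 members. The 6 rises and 4 falls became 14 and 3 with the 75th percentile of all spots, 3 and 3 with spike-in scaling and 2 and 0 in the authors' values. The 446 tested probes had a median difference of -0.25 as scaled here and -0.89 with spike-in scaling, so directions are relative to a set of probes that itself sat lower.

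AgNO3 at 100 mg/kg changed no member against control in limma, where 0.448% of all tested probes changed. The smallest adjusted p among members was 0.0649, 14 members and 44 of all probes had an unadjusted p below 0.05, and the arrays of the groups did not overlap for 21 (12.6%), 11 higher and 10 lower, beside 15.5% of all tested probes (8.3% higher and 7.17% lower). The median log2 difference was -0.01 over the members and -0.04 over all tested probes. For 138 members (82.6%) the 95% interval of the difference lay within 4-fold in either direction, beside 78.9% of all tested probes.

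The members nearest the threshold at 100 mg/kg were clones that changed at 200 mg/kg, and both comparisons used the same control arrays. Ealb_Met_P6_D6_SP6_2090551 had -3.52, -3.97 and -2.60 with AgNO3 at 100 mg/kg, above all control arrays, and a log2 difference of 2.46 ± 0.60 (SE, limma adjusted p = 0.0649). Ealb_Met_P3_G12_SP6_2090418 had 0.83, 0.56 and 1.93, also above control, and a difference of 2.04 ± 0.51 (SE, limma adjusted p = 0.0684). Neither passed. Ealb_Met_P4_F9_SP6_2090104 had -1.61, -2.09 and -2.30 (difference -1.37 ± 0.39, SE) and Ealb_Met_P2_F6_SP6_2090277 had -2.20, -2.53 and -2.76 (difference -1.38 ± 0.40, SE). Both lay below all control arrays and had a limma adjusted p of 0.093, so they did not pass.

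The test between the concentrations did not pass for any member. The count of changed members at 100 mg/kg rose to 3 with the 75th percentile of all spots, spike-in scaling, or normexp and quantile normalization, to 7 with brightness as a covariate and to 9 without Ag-NP 100 mg/kg replicate 1. The counts over all probes are not given for these settings.

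Of the members detected on all 3 AgNO3 100 mg/kg arrays, 3 were detected on no control array: Ealb_Met_P3_D5_SP6_2090362, Ealb_Met_P5_D10_SP6_2090489 and Ealb_Met_P8_E1_SP6_2090693. Ealb_Met_P8_E1_SP6_2090693 had -6.18, -6.00 and -5.03 there beside -8.17, -7.78 and -7.09 in control. All tested probes also had 3 such cases, and 0 the other way. These clones entered the list through the group where they were bright, so this difference in detection is given as a description. The part of the choice of members in it was not tested.

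Ag-NP at 200 mg/kg changed no member against control in limma, as for all tested probes (0% of 446). The smallest adjusted p among members was 0.357, and 18 members and 38 of all probes had an unadjusted p below 0.05. The arrays did not overlap for 28 members (16.8%), 10 higher and 18 lower, beside 12.8% of all tested probes (5.61% higher and 7.17% lower). The median difference was -0.08 over the members and -0.11 over all tested probes. The 95% interval lay within 4-fold for 134 members (80.2%), beside 79.4% of all tested probes.

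The members with the smallest p on the higher side were Ealb_Met_P2_F2_SP6_2090247 and Ealb_Met_P3_C7_SP6_2090377. Ealb_Met_P2_F2_SP6_2090247 had 3.13, 2.65 and 1.68 with Ag-NP at 200 mg/kg and 0.57, 0.24 and -0.08 in control. The groups did not overlap, but the difference of 2.25 ± 0.71 (SE) did not pass (limma adjusted p = 0.357). Ealb_Met_P3_C7_SP6_2090377 had -3.91, -4.61 and -6.23 with Ag-NP at 200 mg/kg, where all 3 arrays detected it, and no control array did. This group was also the one through which it was kept as a member. Its mean was at least 3.55-fold higher, a bound set by the dimmest signal well above background on the control arrays, and it did not pass (limma adjusted p = 0.357).

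On the lower side, Ealb_Met_P8_C1_SP6_2090691 had -5.52, -6.83 and -6.80 with Ag-NP at 200 mg/kg, where 2 of 3 arrays detected it, and -5.26, -4.50 and -4.81 in control. All Ag-NP arrays were below all control arrays (-1.53 ± 0.41, SE, limma adjusted p = 0.357), which did not pass. Ealb_Met_P7_C12_SP6_2090684 had -1.94, -2.97 and -3.43 beside -1.98, -1.21 and -1.30, with 1 array inside the control range. Its difference of -1.28 ± 0.38 (SE) did not pass (limma adjusted p = 0.357). Without Ag-NP 200 mg/kg replicate 1, 4 members passed, and 9 passed with brightness as a covariate (the counts over all probes are not given).

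Ag-NP at 100 mg/kg also changed no member against control in limma (0% of all tested probes). The smallest adjusted p among members was 0.395, 4 members and 10 of all probes had an unadjusted p below 0.05, and 5 (2.99%) had arrays that did not overlap, all of them lower with Ag-NP, beside 2.02% of all tested probes. The 95% interval lay within 4-fold for 152 members (91.0%), the highest share of the 4 silver groups, beside 88.1% of all tested probes. Only control replicate 3 shared a slide with these arrays, and no member passed within that slide or with slide as a block.

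The members with the smallest p were dim clones. Ealb_Met_P10_F3_SP6_2090799 had -7.65, -7.01 and -7.73 with Ag-NP at 100 mg/kg and -6.34, -5.85 and -6.40 in control. It was detected on no Ag-NP 100 mg/kg array, its mean was at least 1.06-fold lower, and it did not pass (limma adjusted p = 0.395). Ealb_Met_P10_G3_SP6_2090800, also detected on no array of this group, had an adjusted p of 0.439 in limma and no size that could be given. On the higher side Ealb_Met_P2_E4_SP6_2090262 had -0.57, -1.61 and -4.23 beside -2.29, -4.18 and -5.01, groups that overlapped (1.69 ± 1.05, SE, limma adjusted p = 0.991). Ealb_Met_P8_E1_SP6_2090693 had -8.72, -3.60 and -6.52 with Ag-NP at 100 mg/kg, with an SD of 2.57 (limma adjusted p = 0.991).

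The clones that changed with AgNO3 at 200 mg/kg were chosen for that difference, so a smaller estimate in another group follows in part from the choice. All 4 silver groups were compared with the same control arrays, so these values are not independent. For Ealb_Met_P6_D6_SP6_2090551 the log2 differences from control were 2.73 with AgNO3 and 1.58 with Ag-NP at 200 mg/kg, and 2.46 and 0.08 at 100 mg/kg. For Ealb_Met_P3_G12_SP6_2090418 they were 2.65 and 1.20 at 200 mg/kg, and 2.04 and 0.47 at 100 mg/kg. For Ealb_Met_P6_D7_SP6_2090558 they were 1.29 and 0.26 at 200 mg/kg, and 1.09 and 0.17 at 100 mg/kg. The direct test between the forms did not pass for these clones at either concentration. Ealb_Met_P6_D6_SP6_2090551 was closest at 100 mg/kg, at -2.38 ± 0.60 with Ag-NP against AgNO3 (95% interval -3.66 to -1.10, limma adjusted p = 0.0975), and Ealb_Met_P6_D7_SP6_2090558 at 200 mg/kg, at -1.03 ± 0.30 (95% interval -1.66 to -0.40, limma adjusted p = 0.0799).

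**Figure D3:**
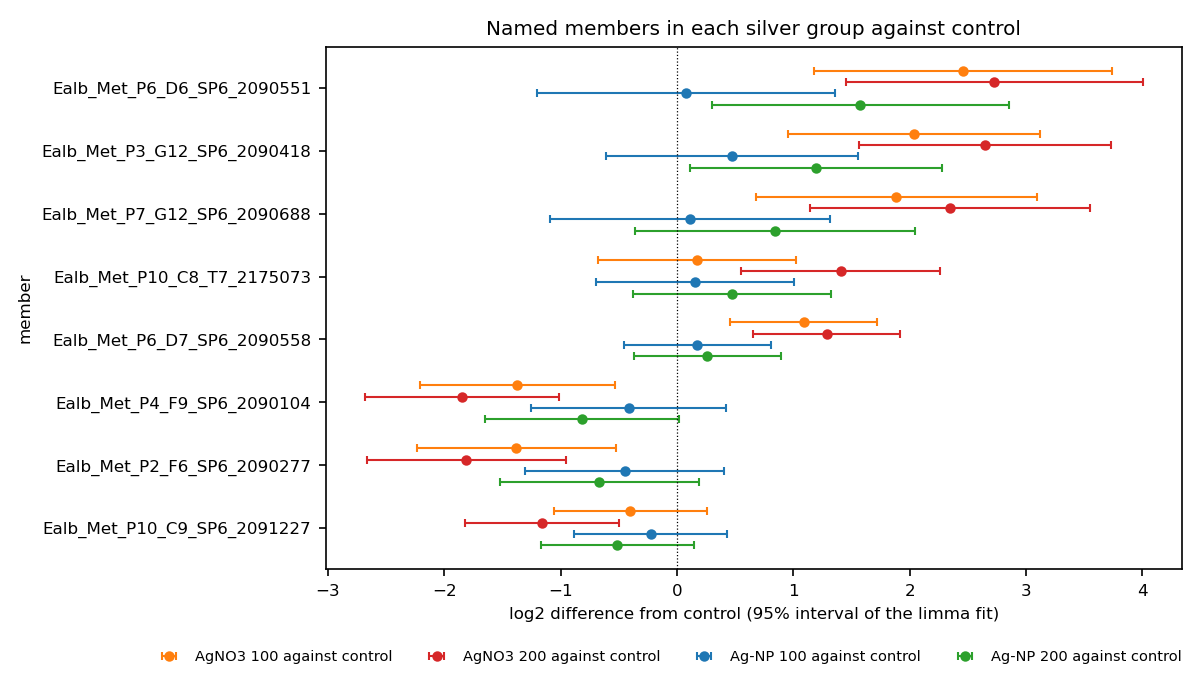
Log2 difference from control of 8 members in each silver group, as points with the 95% interval of the limma fit. The 8 were chosen for passing with AgNO3 at 200 mg/kg (red points), which fixes those intervals clear of 0, and most Ag-NP intervals cross 0. All 4 estimates of a member share the 3 control arrays.

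The next comparison asked whether the silver forms differed at the same concentration. At 200 mg/kg 2 members were lower with Ag-NP than with AgNO3 and none was higher in limma (1.20% of members, beside 0.897% of all tested probes). The arrays of the forms did not overlap for 79 members (47.3%), beside 46.9% of all tested probes, and 56 members and 138 of all probes had an unadjusted p below 0.05. For 107 members (64.1%) the 95% interval of the difference lay within 4-fold in either direction, beside 65.2% of all tested probes. Larger differences were not covered for the rest. The median difference was -0.07 over the members and 0.02 over all tested probes.

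Ealb_Met_P8_C1_SP6_2090691 had -3.80, -3.74 and -3.71 with AgNO3 at 200 mg/kg and -5.52, -6.83 and -6.80 with Ag-NP. The AgNO3 arrays were nearly equal (SD 0.05) and lay above all other arrays of the study except Ag-NP 100 mg/kg replicate 3 (-3.68). The mean was 6.23-fold lower with Ag-NP (-2.64 ± 0.41 log2 units, SE, limma adjusted p = 0.00677). Its processed intensity was only 9.94, 5.71 and 7.91 on the Ag-NP 200 mg/kg arrays, of which 2 of 3 detected it, so its size is uncertain. The difference was -2.38 within slide 1 and -3.10 within slide 3, where each form at 200 mg/kg had 1 array. Since the arrays of the groups did not overlap, the sign on each slide was fixed. The difference passed with slide as a block (limma adjusted p = 0.0411). It did not pass without Ag-NP 200 mg/kg replicate 2 or 3, or with spike-in scaling (limma adjusted p = 0.178). With normexp and quantile normalization its difference was -0.64 (limma adjusted p = 0.0176).

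Ealb_Met_P6_D3_SP6_2090528 had -5.35, -3.91 and -4.29 with AgNO3 at 200 mg/kg and -5.93, -6.47 and -6.70 with Ag-NP. The groups did not overlap, which fixed the sign on each slide, though AgNO3 replicate 1 lay near the Ag-NP arrays. The mean was 3.60-fold lower with Ag-NP (-1.85 ± 0.39, SE, limma adjusted p = 0.0345), with -0.84 within slide 1 and -2.42 within slide 3. It did not pass with slide as a block (difference -1.79, limma adjusted p = 0.138), in the authors' values or without any 1 of 8 arrays, among them AgNO3 and Ag-NP 200 mg/kg replicates 2 and 3. Nor did it pass with normexp and quantile normalization (difference -0.32, limma adjusted p = 0.0648), spike-in scaling (-1.28, 0.293) or a replicate block (0.0582). Its processed intensity was only 7.51, 7.37 and 8.47 on the Ag-NP 200 mg/kg arrays, so its size is uncertain. Its levels correlated with those of Ealb_Met_P8_C1_SP6_2090691 at 0.86 over the 15 arrays, the highest of any member.

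These clones were lowest with Ag-NP at 200 mg/kg. Against Ag-NP at 100 mg/kg the difference was -2.07 ± 0.41 for Ealb_Met_P8_C1_SP6_2090691 (SE, limma adjusted p = 0.0776) and -1.35 ± 0.39 for Ealb_Met_P6_D3_SP6_2090528 (SE, limma adjusted p = 0.681). Neither passed. At 100 mg/kg the forms had overlapping arrays for both, with differences of 0.21 ± 0.41 and -0.52 ± 0.39 (SE).

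At 100 mg/kg 2 members were lower with Ag-NP than with AgNO3 and none was higher in limma (1.20% of members, beside 1.12% of all tested probes). Both were kept as members only through AgNO3 at 100 mg/kg, so the rule itself favoured a difference in this direction. The arrays did not overlap for 13 members (7.78%), 2 higher and 11 lower, beside 9.19% of all tested probes (2.69% higher and 6.5% lower), and 16 members and 43 of all probes had an unadjusted p below 0.05. The 95% interval lay within 4-fold for 136 members (81.4%), beside 80.3% of all tested probes. In addition 11 members were detected on all 3 AgNO3 arrays and on no Ag-NP array, and none the other way, where all tested probes had 30 and 0. AgNO3 at 100 mg/kg is the group through which most partly detected members entered, so this count is a description. No slide held both groups, so a fit with slide as a block links them only through the other groups.

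Ealb_Met_P10_F3_SP6_2090799 had -5.68, -5.88 and -5.42 with AgNO3 and -7.65, -7.01 and -7.73 with Ag-NP at 100 mg/kg. All AgNO3 arrays detected it and no Ag-NP array did, so with Ag-NP its mean lay at least 1.54-fold lower as scaled here (limma adjusted p = 0.0149). Ealb_Met_P10_G3_SP6_2090800, the neighbouring well by name, had -6.06, -6.41 and -5.71 beside -8.38, -7.49 and -7.31. Its mean was at least 1.16-fold lower (limma adjusted p = 0.042), again with no Ag-NP array detected. The levels of this pair correlated at 0.87 over the 15 arrays.

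Neither clone passed with slide as a block (difference -1.68, limma adjusted p = 0.232 for Ealb_Met_P10_F3_SP6_2090799 and -1.70, 0.565 for Ealb_Met_P10_G3_SP6_2090800). With normexp and quantile normalization the differences were -0.21 and -0.18 (limma adjusted p = 0.0735 and 0.0665), so the bounds hold only as scaled here. Spike-in scaling and the authors' values lost Ealb_Met_P10_F3_SP6_2090799 (limma adjusted p = 0.0611 and 0.0529) and kept Ealb_Met_P10_G3_SP6_2090800 (0.0144 and 0.0057). Both clones were lost without AgNO3 100 mg/kg replicate 3. Ealb_Met_P10_G3_SP6_2090800 alone was lost without any 1 of 10 other arrays, and 4 members passed without Ag-NP 100 mg/kg replicate 3 (the count over all probes is not given). At 200 mg/kg the same clones had -1.09 ± 0.30 (SE, limma adjusted p = 0.0775) and, with no Ag-NP array detected, at least 1.68-fold lower means (limma adjusted p = 0.108), and neither passed.

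**Figure D4:**
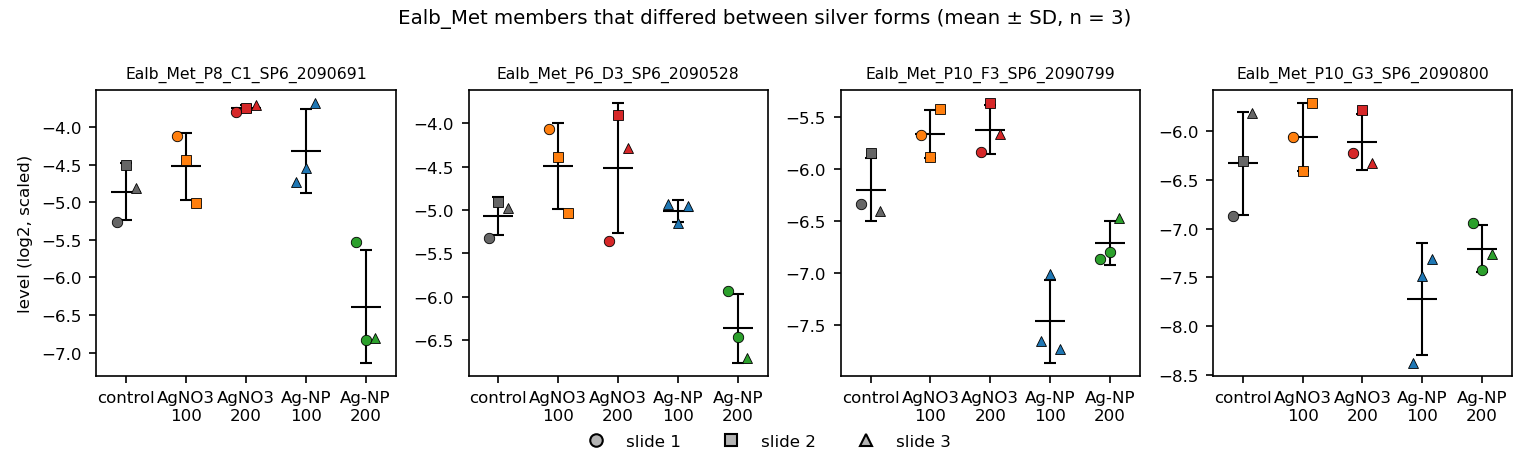
Level (log2, scaled) of the 4 members that differed between silver forms, on each array of the 5 groups, with the mean ± SD (n = 3) and a shape per slide. The Ag-NP 200 mg/kg arrays are lowest for Ealb_Met_P8_C1_SP6_2090691 and Ealb_Met_P6_D3_SP6_2090528, and the Ag-NP 100 mg/kg arrays lie below the AgNO3 arrays for Ealb_Met_P10_F3_SP6_2090799 and Ealb_Met_P10_G3_SP6_2090800.

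Between 200 and 100 mg/kg of AgNO3 no member changed in limma (0% of all tested probes). The smallest adjusted p was 0.174, 33 members and 87 of all probes had an unadjusted p below 0.05, and the arrays did not overlap for 48 members (28.7%), 15 higher and 33 lower at 200 mg/kg, beside 27.6% of all tested probes (6.95% higher and 20.6% lower). Ealb_Met_P3_H11_T7_2175244 had -1.09, -1.21 and 0.15 at 100 mg/kg and 0.83, 0.82 and 0.83 at 200 mg/kg. Ealb_Met_P8_F8_SP6_2091134 had 1.59, 1.44 and 2.83 at 100 mg/kg and 3.50, 3.48 and 3.40 at 200 mg/kg. In both, the arrays at 200 mg/kg were nearly equal and AgNO3 100 mg/kg replicate 3 stood closest to them. The differences were 1.55 ± 0.46 and 1.51 ± 0.48 (SE), each with a limma adjusted p of 0.174, and did not pass.

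The lower clones named by the rule in that comparison were dim. Ealb_Met_P9_B10_SP6_2090756 had -4.27, -4.22 and -5.16 at 100 mg/kg and was detected on no array at 200 mg/kg, with a mean at least 2.80-fold lower. Ealb_Met_P8_B10_SP6_2091145 had -4.80, -3.81 and -5.78 at 100 mg/kg and -6.38, -6.54 and -6.49 at 200 mg/kg, where 1 of 3 arrays detected it. Both had a limma adjusted p of 0.174 and did not pass. In all, 4 members were detected on every AgNO3 100 mg/kg array and on none at 200 mg/kg, beside 19 of all tested probes. Most partly detected members entered through AgNO3 at 100 mg/kg, so this count is a description. Without AgNO3 100 mg/kg replicate 3, 11 members passed between the concentrations (the count over all probes is not given).

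The step from 100 to 200 mg/kg of Ag-NP changed no member in limma either (0% of all tested probes), with a smallest adjusted p of 0.0776 for Ealb_Met_P8_C1_SP6_2090691 and 12 members and 25 of all probes at an unadjusted p below 0.05. The arrays did not overlap for 10 members (5.99%), beside 4.04% of all tested probes. Ealb_Met_P2_H10_SP6_2090310 had -3.25, -3.78 and -5.43 at 200 mg/kg and -8.34, -7.36 and -4.60 at 100 mg/kg, with 1 array at 100 mg/kg inside the range at 200 mg/kg. It was kept as a member only through Ag-NP at 200 mg/kg, so the rule itself favoured a difference in this direction. Ealb_Met_P6_H9_SP6_2090577 had -4.67, -2.81 and -4.86 beside -5.79, -5.76 and -4.86. Neither passed (limma adjusted p = 0.681 for each). Of the members, 4 were detected on all arrays at 200 mg/kg and none at 100 mg/kg, beside 11 of all tested probes. Members were chosen by detection, so this count is a description. Without Ag-NP 200 mg/kg replicate 1, 3 members passed (the count over all probes is not given).

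**Figure D5:**
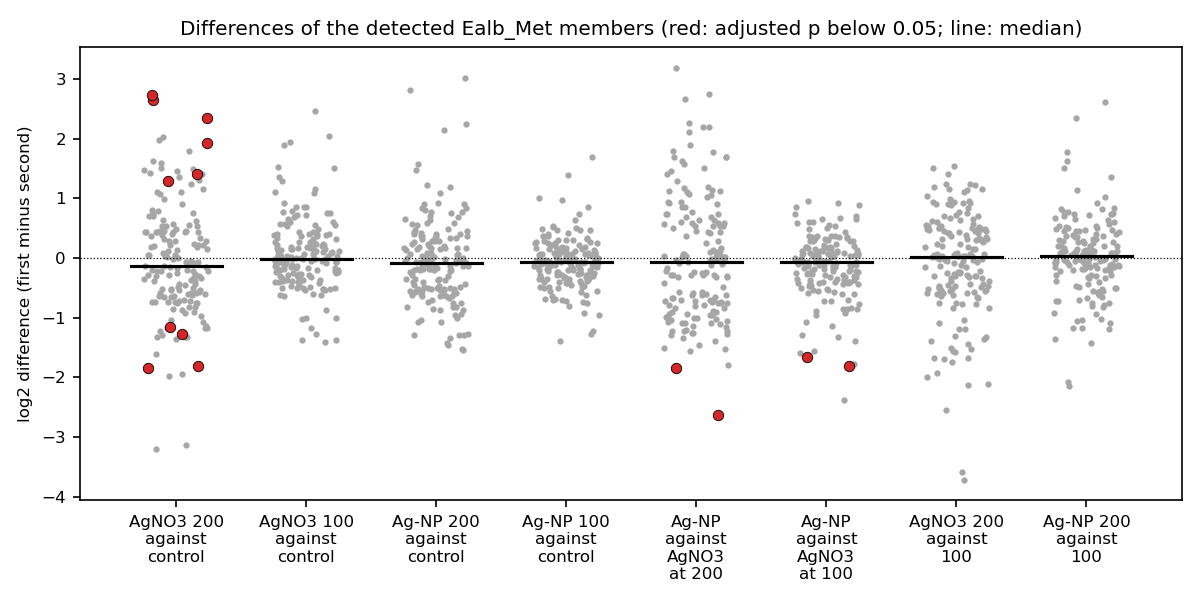
Log2 difference of each of the 167 members in 8 comparisons, as points, with red for an adjusted p below 0.05 and a line at the median. Red points are 10 with AgNO3 at 200 mg/kg against control and 2 between the forms at each concentration, and the other comparisons have none. The comparisons share arrays.

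No member passed the interaction of form and concentration, which asks whether the step from 100 to 200 mg/kg differed between the forms, and 0% of all tested probes did. In limma 16 members and 37 of all probes had an unadjusted p below 0.05. The smallest adjusted p among members was 0.102, for Ealb_Met_P8_C1_SP6_2090691, whose difference of differences was -2.84 ± 0.58 (SE). Ealb_Met_P3_F6_SP6_2090372 went from -0.31 ± 0.35 to -1.83 ± 0.53 (SD, n = 3) with AgNO3 and from -1.39 ± 0.91 to -0.37 ± 0.68 with Ag-NP. The means moved in opposite directions, with 2.53 ± 0.67 (SE, limma adjusted p = 0.309), which did not pass. Nor did Ealb_Met_P9_B10_SP6_2090756 at 2.91 ± 0.83 (SE, limma adjusted p = 0.38) or Ealb_Met_P6_F6_SP6_2090553 at -1.34 ± 0.50 (SE, limma adjusted p = 0.531). Without Ag-NP 200 mg/kg replicate 1, 2 members passed (the count over all probes is not given).

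Over the 5 groups together, 8 members varied in limma's F-test (4.79%, beside 4.71% of all tested probes), all of them among the clones above. Ealb_Met_P10_F3_SP6_2090799 and Ealb_Met_P8_C1_SP6_2090691 had the smallest adjusted p, 0.0156. They were followed by Ealb_Met_P6_D6_SP6_2090551 and Ealb_Met_P3_G12_SP6_2090418 (0.0282), Ealb_Met_P10_G3_SP6_2090800, Ealb_Met_P6_D7_SP6_2090558 and Ealb_Met_P6_D3_SP6_2090528 (0.0361) and Ealb_Met_P4_F9_SP6_2090104 (0.049). Of these 8, 4 are among the 10 that changed with AgNO3 at 200 mg/kg against control, and the other four are those that differed between the forms, of which Ealb_Met_P10_F3_SP6_2090799 and Ealb_Met_P10_G3_SP6_2090800 were kept as members through AgNO3 at 100 mg/kg alone. With slide as a block no member passed the F-test, and without AgNO3 200 mg/kg replicate 2 none did either.

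By likeness over the 15 arrays, Ealb_Met_P10_F3_SP6_2090799 was closest to Ealb_Met_P10_G3_SP6_2090800 (0.87), Ealb_Met_P5_A12_SP6_2090502 (0.73) and Ealb_Met_P6_D7_SP6_2090558 (0.72). Ealb_Met_P8_C1_SP6_2090691 was closest to Ealb_Met_P6_D3_SP6_2090528 (0.86), Ealb_Met_P7_C12_SP6_2090684 (0.83) and Ealb_Met_P9_B12_SP6_2090772 (0.78). The values are Pearson correlations of level over all arrays, given as a description, and those of dim clones also follow background. Clones picked for a difference in the same comparison are also favoured to correlate.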

How the data were processed

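The values deposited by the authors are linear spot intensity readings, written by Agilent Feature Extraction 10.5.1.1 per the file headers and per the submitters' processing notes. The processed intensity was background-subtracted within each array, per the file headers. The authors' deposited table holds 1 log2 value per spot and array, whose columns had a median of 5.51 and correlated with the log2 processed intensity at r = 0.969 to 0.993. Its direction and log2 scale follow from that match, while the sources used here do not give its normalization. It served as an alternative, and its 15 columns all matched a sample.

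Control spots and outlier spots were left out, saturated spots were kept, and each probe's spots were averaged as log2 processed intensity. The array's 75th percentile over the 227 probes detected on all 15 arrays was subtracted, since under a share of 0.5 of the probes was detected on a typical array. All 446 detected probes were fitted together with limma 3.58.1 in R 4.3.3, in 1 fit with group as its sole factor and 10 residual degrees of freedom. The Benjamini-Hochberg adjustment ran separately for 9 comparisons and for the F-test. The fit was tested on simulated data. With 3 arrays per group, array number limits the precision. A member detected on no array of a group has a bound there: the bright group's mean against the mean, per array, of the higher of the dim probe's own level and the lowest level among detected probes, without sampling error.

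Named were the 6 largest rises and the 6 largest falls past the threshold whose arrays did not overlap and were all detected in the brighter group. Where none passed, the 2 with the smallest p in each direction were named. Also named were the 6 members with the smallest p in the F-test, the 3 most like each of the first 3, and those nearest the detection limit. The members and lists were chosen with earlier results of these data known. Alternatives were other scalings, normexp (offset 50) on the median signal with quantile normalization, the authors' values, slide, brightness, filters, a replicate block and leaving out each array. Blocking on the 6 scans and leaving out the 2 arrays with the fewest probes detected were added after seeing the data. Scan day is fixed by slide and was not fitted separately. No gene annotation or probe sequence was used.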

Additional observations from a re-analysis of the deposited data

How the results depend on the processing

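Counts of changed members moved with the processing. Where no count over all 446 probes stands beside it, a count in this section is of members alone and says nothing particular to them. AgNO3 at 200 mg/kg against control had 10 (36 of all 446 probes), and 17 (48) with the 75th percentile of all spots, 6 with spike-in scaling (13) or slide as a block (24), 13 with normexp and quantile normalization (43), 9 with brightness as a covariate (33), 2 in the authors' values (8), 1 with no filter (4), 23 within slide 1 (52), and 0 within slide 2, within slide 3, with scan as a block or without the 2 arrays with the fewest probes detected (the latter settings chosen after seeing the data). Of the 17, 9 were among the 10, as were all 6 with slide as a block and 4 of the 23. AgNO3 at 100 mg/kg had 0, and 3 with the percentile of all spots, spike-in scaling or normexp and quantile normalization, 7 with brightness and 2 among probes detected on all arrays. Within a slide control and AgNO3 at 200 mg/kg are 1 array each, and the spread on slide 1 rests on the pair of Ag-NP 200 mg/kg arrays there. Ag-NP at 200 mg/kg had 0, and 5 within slide 1 and 9 with brightness, and Ag-NP at 100 mg/kg had 0, and 1 with brightness. Between forms at 200 mg/kg the 2 members became 0 with spike-in scaling, within slide 3, among probes detected on all arrays or with scan, 1 with slide, no filter or without the 2 arrays, 5 in the authors' values, 7 with normexp, 16 within slide 1 (42 of all probes) and 34 with brightness (85). At 100 mg/kg the 2 became 0 with normexp, slide, no filter, scan or probes detected on all arrays, 1 without the 2 arrays, 6 with brightness (19) and 9 with spike-in scaling (14). Between concentrations of AgNO3 the 0 became 2 in the authors' values and 12 within slide 1, and of Ag-NP it became 1 with brightness. The 8 members that varied over the groups became 3 with spike-in scaling, the authors' values or probes detected on all arrays, 4 with normexp, 30 with brightness (68), and 0 with slide, no filter, scan or without the 2 arrays. Leaving out 1 array gave 0 to 18 (AgNO3 at 200 mg/kg), 0 to 9 (AgNO3 at 100 mg/kg), 0 to 4 (Ag-NP at 200 mg/kg), 0 to 0 (Ag-NP at 100 mg/kg), 0 to 17 and 0 to 4 (forms at 200 and 100 mg/kg), 0 to 11 and 0 to 3 (concentrations of AgNO3 and Ag-NP), 0 to 2 (interaction) and 0 to 12 (variation over the groups).

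The main fit did not pair arrays by replicate number. Deviations of same-numbered arrays correlated at -0.42 to 0.74 over 24 pairs, 7 of them above 0.1, and in no comparison were all 3. For control and AgNO3 at 200 mg/kg, replicates 1, 2 and 3 lay on slides 1, 2 and 3, so there the number also paired the arrays by slide. With a replicate block 17 members changed with AgNO3 at 200 mg/kg, all 10 among them, 3 at 100 mg/kg, and 1 between forms at 200 mg/kg.

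For single named members, 804 of 975 values kept their direction and their side of the threshold, 140 lost the threshold, 30 gained it and 1 turned: Ealb_Met_P10_C8_T7_2175073 was -0.0096 in the authors' values. The causes were not tested. Within a slide few degrees of freedom were left, 1 on slide 1 and slide 2 and 2 on slide 3. Dim members have uncertain sizes, and 3 arrays a group limit what could be detected.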
